A study of Drosophila melanogaster with 39 samples.

Results

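The regions described here lie in the heterochromatic parts of the *Drosophila melanogaster* genome: the pericentromeric ends of 4 chromosome arms and the whole of the small chromosome 4. All 30 deposited peak lists were merged wherever 2 peaks shared at least 1 bp, and regions were taken by position on the dm6 assembly: 2L past 22 Mb, 3L past 22.9 Mb, 3R before 4.2 Mb, X past 22.6 Mb, and all of chromosome 4. This gave 261 of 12294 regions. Of these, 202 were pericentromeric (48 on 2L, 92 on 3L, 34 on 3R and 28 on X) and 59 were on chromosome 4. The 9680 regions on the remainder of 2L, 3L, 3R and X served as the comparison and are called the rest. The other 2353 regions lie on 2R, the mitochondrial genome and unplaced scaffolds.

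The study asked whether the E2 ubiquitin-conjugating enzyme Effete (Eff) and the E3 ligase scaffold Cullin 4 (Cul4) help *gypsy* insulator proteins to associate with chromatin. ChIP-seq was performed in Kc167 cells, a line from *Drosophila* embryos that the labels class as hemocyte, after 4 days with dsRNA against *mcherry* (control, a fluorescent protein gene that flies do not carry), *eff* or *cul4*. CP190, Su(Hw) and Cul4 (rabbit antibody) were each profiled in all 3 treatments. For Cul4 with a mouse antibody, the lists used here are from control cells only. The paper also describes ChIP with that antibody after Cul4 depletion. Each of these 10 groups held 3 biological replicates of a single cell line. Input libraries numbered 9, 3 for each treatment.

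Pericentromeric DNA and chromosome 4 are packaged with methylated histone H3 lysine 9 and HP1, and both are rich in transposon remnants. Genes that reside there are expressed within this chromatin, and several of them lose activity when moved away from it. Su(Hw) recognises the *gypsy* insulator through its zinc fingers, and CP190 is a partner that is also found at many active promoters with other DNA-binding factors such as BEAF-32 and M1BP.

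The windows below show the DNA under the peaks on which the results turn, each 201 bases centred on the median control summit and read from the plus strand of the NCBI RefSeq Release 6 genome (dm6 coordinates). In the first pair capitals mark the Su(Hw) core TGCATAC, searched on both strands. These windows lie under the highest-ranked Su(Hw) regions of the pericentromere and of chromosome 4, and both regions were kept in every knockdown library.
Intergenic, nearest TSS l(3)80Fj (chr3L:28091306-28091506): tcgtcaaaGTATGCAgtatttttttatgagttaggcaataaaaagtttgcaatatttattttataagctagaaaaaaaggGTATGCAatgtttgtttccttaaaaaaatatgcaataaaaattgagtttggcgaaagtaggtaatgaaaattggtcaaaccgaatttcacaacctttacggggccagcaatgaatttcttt
Intergenic, near Asator (chr4:490221-490421): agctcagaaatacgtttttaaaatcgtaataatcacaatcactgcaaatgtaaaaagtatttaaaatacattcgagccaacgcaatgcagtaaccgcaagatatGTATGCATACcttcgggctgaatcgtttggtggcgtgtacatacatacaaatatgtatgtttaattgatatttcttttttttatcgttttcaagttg
The next window lies under the highest-ranked CP190 region of the pericentromere, and capitals mark a match to AGGNGGC, a short CTCF-like core.
Intergenic, near lncRNA:CR45758 (chr3L:22958299-22958499): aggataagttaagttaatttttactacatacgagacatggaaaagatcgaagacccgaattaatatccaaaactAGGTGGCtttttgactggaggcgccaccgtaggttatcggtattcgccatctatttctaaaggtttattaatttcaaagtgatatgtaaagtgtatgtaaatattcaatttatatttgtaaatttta
The following windows are promoters. At *vtd*, where CP190 was lost in both knockdowns and Cul4 after *eff* knockdown, capitals mark the BEAF-32 core TATCGATA. At *RpL10*, the highest-ranked pericentromeric Cul4 region, capitals mark 7 bases centred on an annotated transcription start site (TSS).
vtd promoter (chr3L:27136353-27136553): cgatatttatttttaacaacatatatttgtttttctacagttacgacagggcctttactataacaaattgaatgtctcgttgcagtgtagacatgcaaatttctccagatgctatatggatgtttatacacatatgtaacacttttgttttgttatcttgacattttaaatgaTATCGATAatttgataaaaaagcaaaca
RpL10 promoter (chr3L:23095302-23095502): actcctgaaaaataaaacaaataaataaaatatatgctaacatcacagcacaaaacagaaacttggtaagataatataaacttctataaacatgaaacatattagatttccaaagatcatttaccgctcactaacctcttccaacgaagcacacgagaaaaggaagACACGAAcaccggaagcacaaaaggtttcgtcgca
The last windows are repetitive, and their regions lost Su(Hw) in both knockdowns. In the *Myo81F* intron capitals mark 60 bp of a tandem array, made of 2 copies of a 30 bp unit that differ slightly, and the window matched itself at the 60 bp spacing over 85.1% of bases. In the window near *CG40228* capitals mark the bases that are the same 350 bp away, 94.5% of the 201.
Myo81F intron, nearest TSS CR40182 (chr3R:2087431-2087631): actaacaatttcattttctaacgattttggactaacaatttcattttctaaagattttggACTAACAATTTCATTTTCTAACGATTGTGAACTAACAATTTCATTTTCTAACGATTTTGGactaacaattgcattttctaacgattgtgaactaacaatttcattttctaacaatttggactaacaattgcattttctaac
Intergenic, near CG40228 (chr3L:27069227-27069427): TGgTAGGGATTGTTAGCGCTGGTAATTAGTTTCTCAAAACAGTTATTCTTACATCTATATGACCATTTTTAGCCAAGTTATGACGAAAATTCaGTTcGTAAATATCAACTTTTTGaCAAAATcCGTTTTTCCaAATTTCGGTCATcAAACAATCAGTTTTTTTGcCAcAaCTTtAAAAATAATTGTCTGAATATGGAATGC

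Peaks were sparse in both territories. In control cells the pericentromeric parts held 147, 86 and 120 CP190 peaks, 63, 76 and 71 Cul4 peaks and 40, 48 and 44 Su(Hw) peaks per library. Chromosome 4 held 41, 27 and 36 CP190 peaks, 11, 20 and 16 Cul4 peaks and 9 Su(Hw) peaks in each of the 3 libraries. Whole lists held between 424 and 9149 peaks, and they carry no read totals, so the depth behind each list is known only through its size. The shortest lists were Cul4 after *eff* knockdown, where libraries 2 and 3 held 571 and 424 peaks against 4488 in library 1.

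CP190 density in control cells was 12.4, 7.25 and 10.1 peaks per Mb in the pericentromeric parts and 30.4, 20.03 and 26.7 on chromosome 4, against 75.7, 61.5 and 74.1 in the rest. No control library of either territory reached the level of the rest. Over the 9 CP190 libraries of all treatments, the log2 density inside minus the rest was −3.26 ± 0.35 (SD) for the pericentromere and −1.57 ± 0.14 for chromosome 4. The same difference was −3.51 ± 0.98 and −1.78 ± 0.94 for Cul4. For Su(Hw) it was −3.52 ± 0.29 and −2.33 ± 0.11. Every library of each protein was lower inside than in the rest (two-sided exact sign-flip permutation over 9 libraries, p = 0.00391, the smallest possible, adjusted 0.00595 over 32 tests). The 9 libraries of a protein are 3 treatments of a single cell line, and many sites recur among them. Such a p measures how repeatable a difference is over libraries, not variation between sites. The same limit holds for each sign-flip test of a territory against the rest below.

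**Figure D1:**
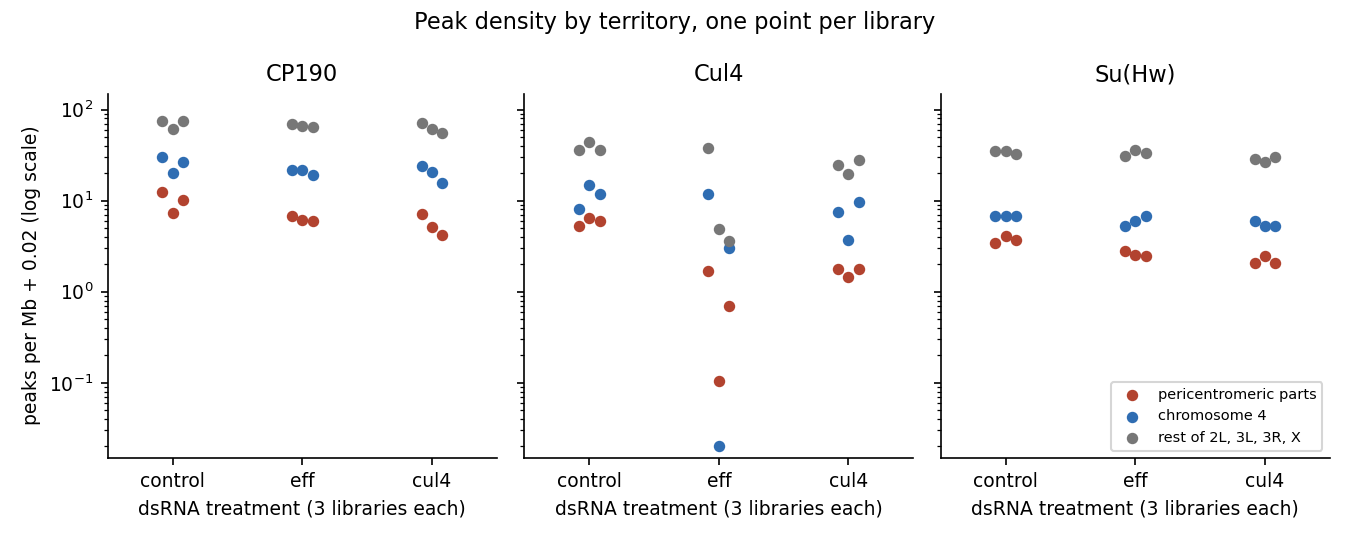
Peaks per Mb plus 0.02 (log axis) for CP190, Cul4 and Su(Hw) by dsRNA treatment, 1 point per library, coloured by territory. Pericentromeric points lie lowest in nearly every library, and chromosome 4 lies between them and the rest except in 1 Cul4 library after *eff* knockdown that called no peak on chromosome 4.

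Both territories are poor in callable sequence or genes to different degrees. The pericentromeric parts span 11.9 Mb with 116 protein-coding genes (9.78 per Mb) and 59.3% of bases free of repeat masking. Chromosome 4 spans 1.35 Mb with 80 protein-coding genes (59.3 per Mb) and 71.9% unmasked, and the rest has 114 per Mb and 82.5%. Reads with poor mapping quality were removed by the authors, and the part of mappability in the low density was not tested. Each density difference kept its direction when only unmasked bases were counted.

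The control density did not step up at a single point along the arms. Regions called in all 3 CP190 control libraries stood at 9.25 per Mb in the first Mb from the centromere-proximal end of the assembled arms and at the same value in the second. They stood at 26.5 per Mb between 2 and 3 Mb and at 60 per Mb between 5 and 6 Mb. Cul4 went from 5.5 to 24 and Su(Hw) from 4.75 to 33.75 regions per Mb between the first Mb and 5 to 6 Mb.

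**Figure D2:**
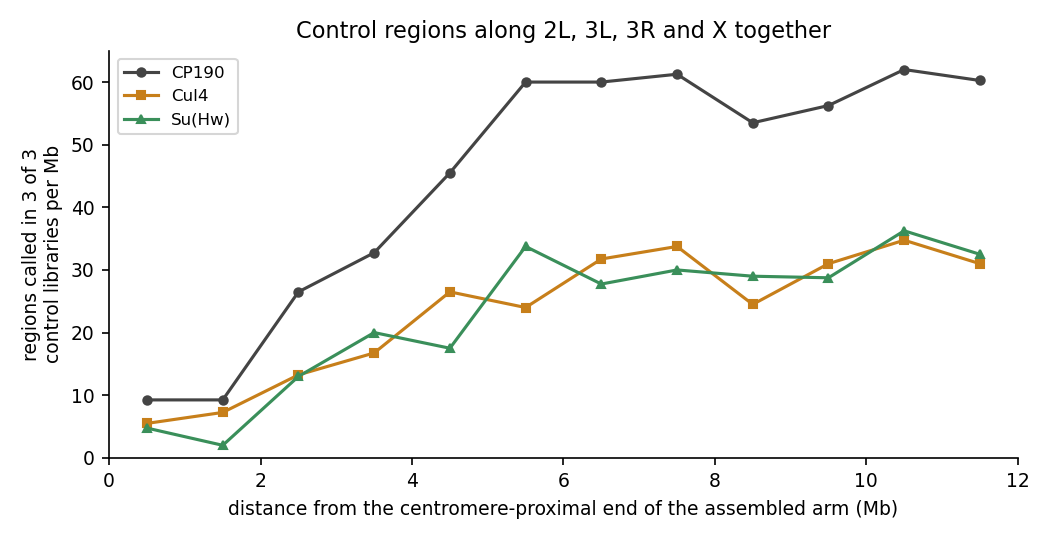
Regions called in 3 of 3 control libraries per Mb (y axis) against distance in Mb from the centromere-proximal end of the assembled arm (x axis), 2L, 3L, 3R and X together. The 3 curves are low in the first 2 Mb, at 9.25 per Mb for CP190, and between 5 and 6 Mb stand at 60 per Mb for CP190, 24 for Cul4 and 33.75 for Su(Hw).

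Over all treatments, genes inside also had fewer promoter peaks than genes elsewhere. A CP190 peak within 1 kb of the TSS was present at 22.6% ± 5.85 of 215 pericentromeric genes in control cells (SD, n = 3), at 19.0% ± 5.71 of 114 chromosome 4 genes and at 44.3% ± 4.35 of 13705 genes in the rest. Over all 9 libraries the means were 13.5%, 14.9% and 42.3%. For Cul4 they were 10.9%, 6.73% and 18.8%, and for Su(Hw) 0.879%, 0.877% and 5.97%. All 6 of these comparisons with the rest had every library lower (exact sign-flip permutation, n = 9, p = 0.00391, adjusted 0.00595). In control cells alone Cul4 was nearer to the rest in the pericentromere, at 23.7% ± 1.23 of genes against 28.7% ± 2.05 (SD, n = 3). Among protein-coding genes, Cul4 in all 3 control libraries was found at 34 of 116 in the pericentromere (29.3%), 6 of 80 on chromosome 4 (7.5%) and 27.5% of 10897 in the rest.

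CP190 summits inside lay away from start sites. Within 250 bp of a TSS were 18.9% ± 6.55 of pericentromeric and 22.4% ± 7.07 of chromosome 4 CP190 summits, against 48.1% ± 1.03 in the rest (SD, n = 9, exact sign-flip permutation, adjusted p = 0.00595 for each). By group the pericentromeric CP190 share was 26.9% ± 1.51 in control cells, 16.9% ± 3.16 with *eff* and 12.8% ± 0.46 with *cul4* dsRNA (SD, n = 3, not tested). Su(Hw) summits were near a TSS in 0.278% of pericentromeric peaks and 5.88% of those in the rest, but in 13.7% ± 3.48 on chromosome 4, where 9 libraries of 9 were higher. That chromosome 4 excess turned to a deficit of −7.24 percentage points when 1 kb was used in place of 250 bp. The excess rests on 7 to 9 Su(Hw) peaks per library. Of the 8 reproducible control regions there, 7 were called in all 3 libraries of each knockdown. The 9 libraries thus largely repeat the same sites, and the test does not measure variation between sites. Cul4 had the highest share near a TSS in the pericentromere, at 50.8% ± 26.7 of summits against 66.9% ± 14.1 in the rest (n = 9), a difference that did not pass the exact sign-flip permutation (p = 0.0742, adjusted 0.0913). In control cells alone the share was 55.9% ± 2.53 against 72.4% ± 1.57 (SD, n = 3, not tested). It was 46.7% ± 50.3 against 50.9% with *eff* dsRNA and 49.9% ± 15.8 against 77.3% with *cul4* dsRNA. On chromosome 4 the 8 Cul4 libraries with a peak averaged 42.5% against 67.4% (exact sign-flip permutation, p = 0.00781, adjusted 0.0114), all 8 lower.

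The territories differed in how their peaks ranked. Fold enrichment is comparable only within a list, so each peak was given its percentile there. CP190 peaks on chromosome 4 averaged the 65.8 ± 6.10 percentile against 50.4 ± 0.26 in the rest, and those of Su(Hw) averaged 61.1 ± 3.48 against 49.9 ± 0.40, higher in 9 of 9 libraries each (SD, exact sign-flip permutation, adjusted p = 0.00595). Pericentromeric CP190 peaks averaged 42.9 ± 5.90, lower in 8 of 9 libraries (n = 9, exact sign-flip permutation, p = 0.0117, adjusted 0.0163). With lists cut to equal size the last difference became 0.916 in the other direction. Pericentromeric Cul4 (34.0) and Su(Hw) (46.9) peaks and chromosome 4 Cul4 peaks (57.8) did not pass the adjusted threshold (exact sign-flip permutation, adjusted p = 0.06, 0.262 and 0.06). The pericentromeric means over 9 libraries pool unlike groups. Cul4 averaged 55.5 ± 2.53 in control cells, above the 50.5 ± 0.22 of the rest in 3 of 3 libraries, but 21.5 ± 18.6 with *eff* dsRNA and 25.0 ± 4.62 with *cul4* dsRNA (SD, n = 3). Su(Hw) averaged 40.7 ± 3.78, 46.1 ± 3.65 and 54.0 ± 7.01 in the same order. CP190 averaged 37.5 ± 3.58, 42.4 ± 1.02 and 49.0 ± 5.09, against 50.7, 50.3 and 50.2 in the rest, so its deficit was small with *cul4* dsRNA. These group values were not tested.

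Combinations of proteins were counted over regions called in all 3 control libraries of at least 1 protein. Of 113 such pericentromeric regions, 31 held CP190 alone, 26 CP190 with Cul4, 22 CP190 with Su(Hw), 24 Cul4 alone, 8 Su(Hw) alone and 2 all 3. On chromosome 4, 15 of 31 held CP190 alone, 7 CP190 with Su(Hw), 5 Cul4 alone, 3 CP190 with Cul4 and 1 all 3. No reproducible Su(Hw) region of chromosome 4 lacked CP190. Counted over peaks of all 9 libraries, 98.8% ± 3.70 of Su(Hw) peaks on chromosome 4 overlapped a control CP190 region, against 74.8% ± 5.09 in the rest (exact sign-flip permutation, adjusted p = 0.00595). These are 7 to 9 Su(Hw) peaks per library, largely the same sites each time, so the p does not measure variation between sites. The pericentromeric share was 70.3% ± 13.2 and did not differ past the threshold (exact sign-flip permutation, n = 9, adjusted p = 0.305). That mean pools unlike groups, which were not tested. Control cells stood at 56.4% ± 5.44 against 72.0% ± 2.52 in the rest (SD, n = 3). With *eff* dsRNA the share was 73.2% ± 8.39 against 71.9%, and with *cul4* dsRNA 81.3% ± 10.7 against 80.5%.

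The reverse overlap was lower inside. Of CP190 peaks, 30.6% ± 6.74 in the pericentromere and 27.1% ± 4.29 on chromosome 4 lay on a control Su(Hw) region, against 38.8% ± 1.03 in the rest (n = 9, exact sign-flip permutation, adjusted p = 0.00595). The pericentromeric difference became 0.271 percentage points higher at equal list size. By group the pericentromeric share was 23.3% ± 5.40 in control cells, 33.3% ± 1.74 with *eff* and 35.3% ± 5.17 with *cul4* dsRNA. The rest stood at 38.1%, 38.9% and 39.5% in the same order (SD, n = 3, not tested). Cul4 peaks on CP190 regions averaged 47.4% in the pericentromere and 65.7% in the rest, and 51.9% on chromosome 4, with neither difference past the threshold (exact sign-flip permutation, adjusted p = 0.121 and 0.102). These means pool unlike groups, which were not tested. In the pericentromere, control cells stood at 46.3% ± 2.49 against 65.6% ± 1.79 in the rest, lower in 3 of 3 libraries. With *cul4* dsRNA the values were 70.0% ± 15.0 against 66.7%. With *eff* dsRNA they were 25.8% ± 34.5 against 64.9%, from 20, 1 and 8 peaks. On chromosome 4 the shares were 42.5% in control cells, 39.5% with *cul4* and 84.4% with *eff* dsRNA (2 libraries). In all, 23 of the 32 comparisons of a territory with the rest passed, 19 of them lower inside and 4 higher. The higher ones include those of Su(Hw) on chromosome 4, with 7 to 9 peaks per library.

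The mouse Cul4 antibody called 21, 21 and 19 pericentromeric peaks and 12, 11 and 10 on chromosome 4. Regions with all 3 mouse libraries numbered 12 and 10, of which 5 and 2 also had the rabbit antibody in all 3 control libraries, against 317 of 598 in the rest. Of the mouse regions, 9 of 12 and 9 of 10 held reproducible control CP190, against 592 of 598 in the rest. The 2 antibodies thus shared 41.7% and 20% of the mouse regions inside, which are 5 of 52 and 2 of 9 of the rabbit regions.

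Motifs were sought within 100 bp of the median control summit, on both strands. TGCATAC was present at 12 of 32 reproducible Su(Hw) regions of the pericentromere (37.5%) and 5 of 8 on chromosome 4 (62.5%), against 31.1% of 3006 in the rest. The l(3)80Fj window printed above holds the core at 2 positions, and the Asator window has an overlapping pair of matches on opposite strands. BEAF-32's TATCGATA was present at 9 of 81 pericentromeric CP190 regions (11.1%) and 1 of 26 on chromosome 4, against 7.88% in the rest. M1BP's GTGTGACC was found at 1 of 81 and 0 of 26, against 7.08% of 5637. AGGNGGC was present at 5 of 81 and 2 of 26 CP190 regions and at 8.05% in the rest.

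The 5 highest-ranked CP190 regions and the 5 highest-ranked Su(Hw) regions of each territory were called by that protein in 9 of 9 libraries, whereas the 5 highest-ranked pericentromeric Cul4 regions had 0 Cul4 calls after *eff* knockdown. Folds below are given as written in each list and were not compared between lists. The Su(Hw) region at chr3L:28090596-28092004, 78828 bp from the TSS of *l(3)80Fj*, had Su(Hw) folds of 19.6, 20.05 and 19.7 in control cells, 19.5, 11.6 and 9.24 with *eff* dsRNA and 20.8, 24.8 and 8.16 with *cul4* dsRNA. CP190 folds there were 18.8, 20.9 and 17.9, then 11.3, 13.7 and 11.98, then 13.2, 21.6 and 25.9. It was called by both proteins in all 18 libraries, and by Cul4 in 3 control libraries, 1 with *eff* dsRNA and 0 with *cul4* dsRNA. The lncRNA:CR45758 region (chr3L:22957730-22959138) kept CP190 in 9 of 9 libraries, with folds of 19.0, 20.9 and 18.6 in control cells and 14.8, 16.0 and 16.0 after *eff* knockdown.

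On chromosome 4 the region near *fuss*, a Ski/Sno family co-regulator (chr4:979296-980877), had CP190 folds of 19.1, 21.1 and 18.6 in control cells, 21.6, 22.4 and 26.0 with *eff* dsRNA and 17.0, 32.2 and 43.5 with *cul4* dsRNA. Mouse Cul4 folds there were 20.8, 20.4 and 27.3, and rabbit Cul4 folds 3.76, 4.48 and 4.02. The *Asator* window printed above lies in chr4:489334-491381, where Su(Hw) folds were 15.3, 15.9 and 13.5 in control cells and 12.2, 11.1 and 7.02 after *cul4* knockdown. *Cals*, the calsyntenin gene, contains the 1 chromosome 4 region with all 3 proteins (chr4:1112493-1114070). Its Cul4 folds were 11.3, 13.3 and 10.7 in control cells and 4.75, 5.06 and 5.22 after *cul4* knockdown.

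Fewer pericentromeric peaks were called after either knockdown. CP190 peaks numbered 147, 86 and 120 in control cells, 80, 73 and 70 with *eff* dsRNA and 85, 61 and 49 with *cul4* dsRNA. For Cul4 the 63, 76 and 71 control peaks compared with 20, 1 and 8 and with 21, 17 and 21. For Su(Hw) the 40, 48 and 44 control peaks compared with 33, 30 and 29 and with 24, 29 and 24. The control and knockdown libraries did not overlap in any of these 6 sets of counts, which come from lists of unequal length. As a share of lists of equal length, described further on, they overlapped in 4 of the 6. On chromosome 4 the CP190 libraries did overlap, with 29, 29 and 26 peaks with *eff* dsRNA and 32, 28 and 21 with *cul4* dsRNA against 41, 27 and 36 in control cells.

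A region was counted as lost when all 3 control and no knockdown libraries called it. Of 81 reproducible pericentromeric CP190 regions, 15 were lost with *eff* dsRNA and 21 with *cul4* dsRNA, against 43 and 82 of 5637 in the rest. Over all 5744 reproducible CP190 regions of 2L, 3L, 3R, X and chromosome 4, these included, the shares lost were 1.01% and 1.79%. Shares and counts over all regions below cover the same chromosomes, without 2R. None of the 26 reproducible CP190 regions on chromosome 4 was lost in either knockdown, and 26 and 19 of them were called in all 3 knockdown libraries.

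Cul4 losses were larger throughout. After *eff* knockdown 38 of 52 pericentromeric, 3 of 9 chromosome 4 and 758 of 2781 other Cul4 regions were lost, and over all regions the share was 28.1%. After *cul4* knockdown, which depletes the immunoprecipitated protein itself, 30 of 52, 1 of 9 and 528 of 2781 were lost, against 19.7% over all. Su(Hw) lost 5 of 32 pericentromeric regions after *eff* knockdown and 9 of 32 after *cul4* knockdown, where the shares over all regions were 0.919% and 7.65%. It lost 0 of 8 on chromosome 4 in both.

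**Figure D3:**
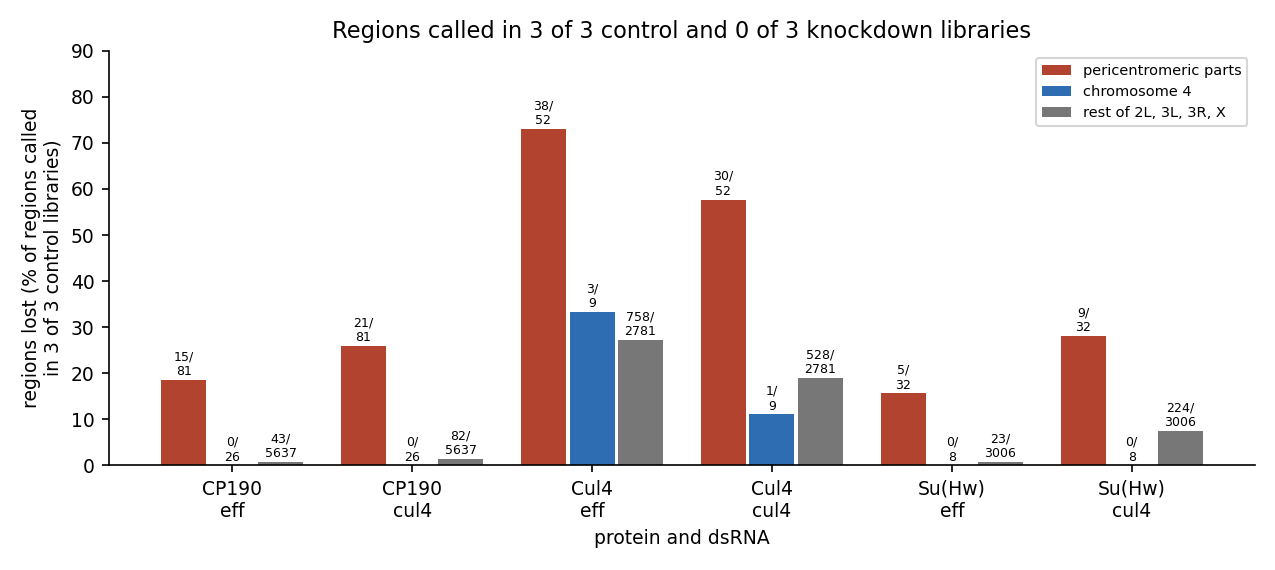
Regions lost as a percentage of those called in 3 of 3 control libraries (y axis) for each protein and dsRNA (x axis), with lost and total counts printed above each bar and bars coloured by territory. The pericentromeric bar exceeds that of the rest in all 6 comparisons, while chromosome 4 has 0 lost regions for CP190 and Su(Hw).

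Gains were rare. CP190 gained 1 region inside after *eff* knockdown (chr3R:2411805-2412166, in an intron of *Myo81F*) and 0 after *cul4* knockdown, where the shares over all regions called were 0.147% and 0.0398%. Su(Hw) gained 1 inside after *eff* knockdown (chr3L:26143836-26144360, near CR41320) and 0 after *cul4* knockdown, against 0.308% and 0.0288% over all. Cul4 gained 0 inside in both, against 0% and 0.189%. Lists cut to equal size are described further on. There gains and losses over all regions were 38 and 60 for CP190 after *eff* knockdown, 76 and 125 after *cul4* knockdown. For Cul4 they were 9 and 82, then 63 and 121, and for Su(Hw) 36 and 27, then 28 and 51. Inside, each count of gains there was 0 or 1. The paper's differential test of signal, a different measure, reported more CP190 sites increased than decreased in either knockdown.

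The response was next compared between territories with the share of control regions retained. For each library, regions shared by 2 control libraries other than itself were taken, the percentage it also called was computed, and this was averaged over every such pair. Pericentromeric retention minus that of the rest was 0.0, −11.8 and −1.2 percentage points in the CP190 control libraries, −22.4, −25.2 and −24.3 with *eff* dsRNA and −25.9, −33.4 and −30.8 with *cul4* dsRNA. For Cul4 the control libraries stood at 2.43, 2.04 and −1.61, those after *eff* knockdown at −47.2, −12.6 and −5.63 and those after *cul4* knockdown at −31.8, −37.7 and −40.9. The short Cul4 libraries 2 and 3 of *eff* knockdown retained 1.82% and 3.64% in the pericentromere and 14.4% and 9.27% in the rest. A difference cannot fall further than the share in the rest, so these libraries had little room. In Su(Hw) libraries the values were −5.39, 0.497 and −3.31, then −23.5, −18.4 and −15.6, then −17.6, −14.4 and −20.7.

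In every one of these 6 comparisons all 3 knockdown libraries lay below all 3 control libraries (two-sided exact permutation, 3 against 3, p = 0.1, the smallest possible). Chromosome 4 alone showed no such separation. CP190 retention there minus the rest averaged −1.14 ± 1.98 in control cells and −0.48 ± 0.26 after *eff* knockdown (SD, n = 3, exact permutation, p = 1). The chromosome 4 groups overlapped in all 6 comparisons, with exact permutation p from 0.4 to 1. With both territories pooled, retention minus the rest was lower than in control cells in all 6, by a mean difference of −14.8 and −20.3 points for CP190, −18.5 and −30.1 for Cul4 and −13.3 and −10.9 for Su(Hw) after *eff* and *cul4* knockdown (exact permutation, p = 0.1, adjusted 0.12 over 18 tests). These 18 tests also cover the retained share itself and the share of a list inside. Groups overlapped in 3 of them, the CP190 retained share after *eff* (−13.8 points, exact permutation, p = 0.4) and *cul4* knockdown (−25.7, exact permutation, p = 0.2) and the Cul4 share of a list after *eff* knockdown (−0.53, exact permutation, p = 0.6).

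**Figure D4:**
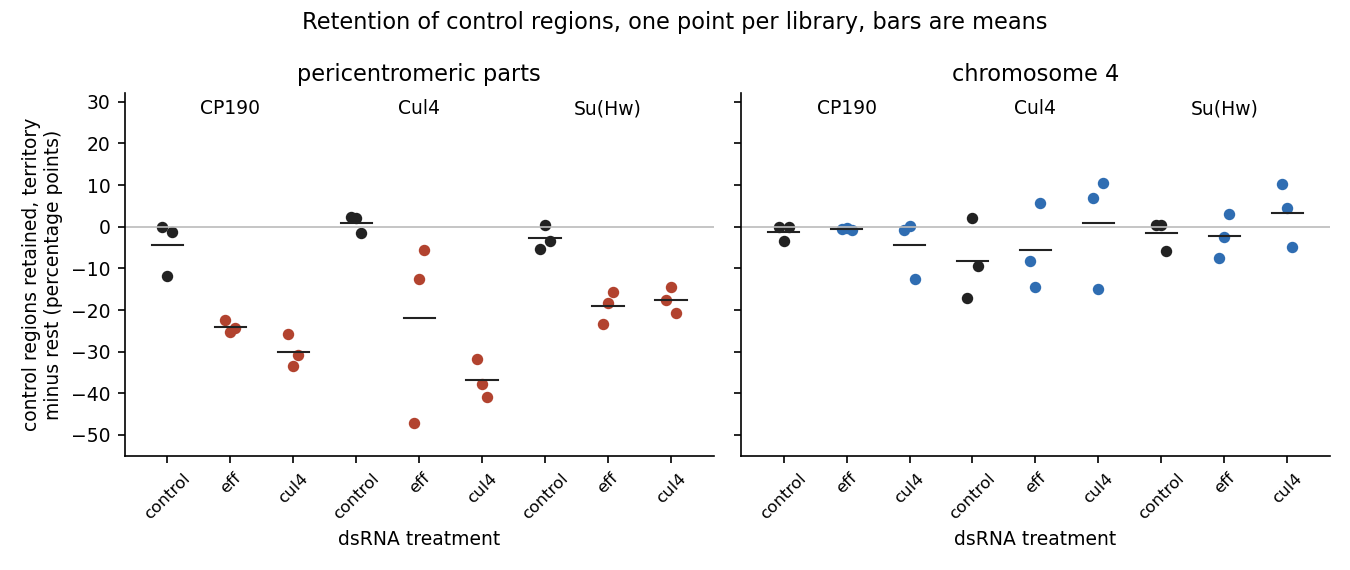
Share of control regions retained in a territory minus that in the rest, in percentage points (y axis), by protein and dsRNA treatment (x axis), 1 point per library with bars at the group means. In the pericentromeric parts (left) all knockdown points lie below the control points of the same protein, and on chromosome 4 (right) the groups overlap.

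List length moved with these results. When all lists of a comparison were cut to the size of the shortest, pericentromeric CP190 losses became 7 of 60 after *eff* knockdown and 4 of 45 after *cul4* knockdown, against 53 of 5454 and 121 of 4866 in the rest. Retention minus the rest was then −10.8 and −5.09 points from control for CP190, −43.2 for Cul4 after *cul4* knockdown and −8.54 for Su(Hw) after *eff* knockdown (exact permutation, 3 against 3, p = 0.1 each). For Su(Hw) after *cul4* knockdown it was −0.67 (exact permutation, 3 against 3, p = 0.6). The Cul4 comparison after *eff* knockdown left 424 peaks a list and no reproducible pericentromeric region.

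The pericentromeric share of these equal lists separated the groups in 2 of 6 comparisons. It was lower than in control cells by a mean difference of −0.140 percentage points for CP190 after *eff* knockdown and −0.673 for Cul4 after *cul4* knockdown (exact permutation, 3 against 3, p = 0.1 each). The groups overlapped for CP190 after *cul4* knockdown (−0.0154, exact permutation, p = 0.9) and for Cul4 after *eff* knockdown (0.550, exact permutation, p = 0.7). They also overlapped for Su(Hw), at −0.0460 after *eff* knockdown (exact permutation, p = 0.6) and a difference of 0 after *cul4* knockdown (exact permutation, p = 1).

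Single libraries also moved the counts. With replicate 2, the shortest CP190 control list, left out of both groups, 38 of 115 pericentromeric CP190 regions were lost after *eff* knockdown and 40 of 115 after *cul4* knockdown, against 534 and 479 of 6856 in the rest, and chromosome 4 lost 4 of 33 each time. Without replicate 1, CP190 lost 32 of 81 after *cul4* knockdown against 344 of 5637 in the rest, and Cul4 lost 52 of 55 after *eff* knockdown against 2472 of 3019. Cul4 retention inside minus the rest after *eff* knockdown turned to 0.437 points above control without replicate 1, whose list was the only long one of that group.

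The local background of the peaks differed by treatment too. MACS2 writes a fold and a Poisson p for each summit, from which the background it used can be solved. The median background at pericentromeric peaks divided by that in the rest was below 1 in 9 of 9 control libraries of the 3 proteins (0.583 to 0.936, median 0.738). It was above 1 in 8 of 9 libraries after *eff* knockdown (0.952 to 5.03, median 1.09) and in 6 of 9 after *cul4* knockdown (0.827 to 1.23, median 1.16). On chromosome 4 the ratio was below 1 in all 26 libraries with a peak there. Many peaks sat within 2% of the lowest background of their list. In the CP190 control libraries these were 56.5% ± 1.78 of pericentromeric, 94.3% ± 6.33 of chromosome 4 and 22.3% ± 0.23 of other peaks (SD, n = 3). Such ratios set that lowest value against the median of the rest. The ratio of 5.03 rests on 8 Cul4 peaks, and another Cul4 library after *eff* knockdown had 1 pericentromeric peak.

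**Figure D5:**
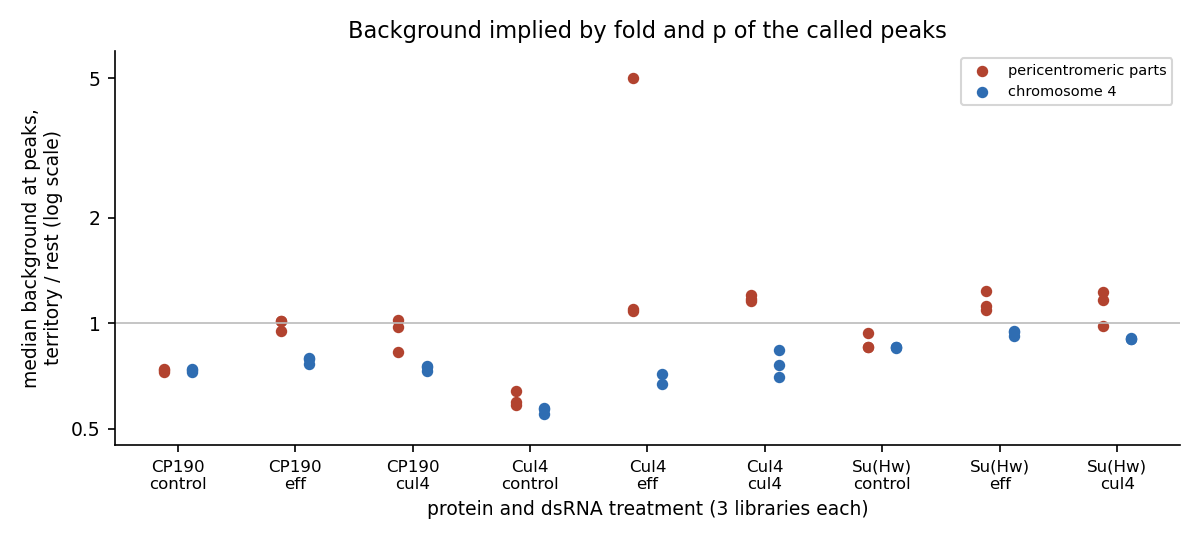
Median background at called peaks in a territory divided by that in the rest (log axis) for each protein and dsRNA treatment, 1 point per library. Pericentromeric control points lie below 1 and most knockdown points above it, whereas all chromosome 4 points lie below 1.

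At regions called in both groups the pericentromeric background relative to the rest was higher than in control cells after either knockdown. The factors were 1.07-fold and 1.02-fold for CP190 after *eff* and *cul4* knockdown, 1.43-fold and 1.62-fold for Cul4 and 1.15-fold and 1.04-fold for Su(Hw). The read pileup there, which the fold sets against that background, was also higher relative to the rest. In the same order it was 1.029-fold and 1.113-fold for CP190, 1.381-fold and 1.023-fold for Cul4 and 1.051-fold and 1.118-fold for Su(Hw). Pileup rose more than background after *cul4* knockdown for CP190 and Su(Hw), and less in the other comparisons (not tested). When control peaks were scored again with the background factors, CP190 losses stayed at 15 of 81 and 21 of 81 and Su(Hw) losses at 5 and 9 of 32. Cul4 losses became 33 of 45 and 17 of 35. With factors from the list medians they were 17 of 26 and 7 of 22 for Cul4, and 14 of 79 and 20 of 80 for CP190. Neither kind of factor holds the knockdown background at lost regions, which have no knockdown peak. Rescoring therefore cannot show how far background accounts for those losses. Each treatment has its own inputs, so the effect of a knockdown and a difference between inputs cannot be told apart.

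Lost CP190 regions were the low-ranked ones. Among pericentromeric CP190 regions below the 25th percentile in control lists, 13 of 23 were lost after *eff* knockdown and 14 of 23 after *cul4* knockdown, against 32 and 52 of 693 such regions in the rest. At or above the 50th percentile 0 and 1 of 36 were lost. Cul4 differed, since 13 of 16 pericentromeric regions at or above the 75th percentile were lost after *eff* knockdown, against 177 of 838 in the rest.

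CP190 and Cul4 losses occurred on all 4 arms. CP190 lost 4 of 19 regions on 2L, 6 of 35 on 3L, 3 of 11 on 3R and 2 of 16 on X with *eff* dsRNA, and 7, 7, 5 and 2 with *cul4* dsRNA. Cul4 lost 16 of 22, 12 of 16, 7 of 10 and 3 of 4 with *eff* dsRNA, and 12, 11, 4 and 3 with *cul4* dsRNA. Su(Hw) lost 0 of 2, 3 of 15, 2 of 2 and 0 of 13 with *eff* dsRNA, and 0, 4, 2 and 3 with *cul4* dsRNA. The losses of the knockdowns are counted against the same control libraries.

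Losses were counted by kind of CP190 region. Within 1 kb of a TSS, 8 of 26 pericentromeric CP190 regions were lost after *eff* knockdown and 12 of 26 after *cul4* knockdown, against 7 and 9 of 55 farther away. In the rest both kinds were lost at like rates, 0.724% and 0.824% after *eff* knockdown. Pericentromeric CP190 regions with reproducible Su(Hw) lost 1 of 24 in each knockdown, and those without it lost 14 and 20 of 57. Regions with reproducible Cul4 lost 8 and 13 of 28, and those without it 7 and 8 of 53. In the rest, CP190 regions with Cul4 were lost at 0.472% and 1.21%, and those without it at 0.911% and 1.58%, so the order of the 2 kinds was the other way round there. With Su(Hw) 0.265% were lost in each knockdown in the rest, and without it 1.10% and 2.255%.

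Heavily masked regions were counted separately. Of the 202 pericentromeric regions, 22 were over 50% repeat-masked, and 17 of these were called in control libraries only and 5 in control and knockdown libraries. Of the 17, 3 met the definition of lost for 1 protein in both knockdowns, and 2 were called by the mouse Cul4 antibody alone, for which no knockdown list was used here. The others were called in at most 2 control libraries each of CP190, rabbit Cul4 and Su(Hw). Over all pericentromeric regions 88 (43.6%) were called in control libraries only, as were 18 of 59 (30.5%) on chromosome 4 and 6.05% in the rest, while 8, 3 and 7.85% were called in knockdown libraries only. Leaving out regions over 50% masked changed the lost count by more than 1.5 times only for Su(Hw) after *eff* knockdown, from 5 to 3.

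The highest-ranked CP190 and Su(Hw) region lost after *eff* knockdown was repetitive. It lies in an intron of *Myo81F*, a myosin gene (chr3R:2085159-2088670), over the tandem array printed above. Across this whole region the best spacing was 30 bp, at 45.5% identity. Control folds were 4.82, 6.95 and 5.60 for CP190, 5.68, 8.62 and 9.07 for Su(Hw), 6.68, 7.59 and 3.69 for rabbit Cul4 and 7.43, 9.10 and 11.3 for mouse Cul4. After either knockdown 0 CP190 or Su(Hw) libraries called it, and 1 Cul4 library did after each. The 350 bp repeat near *CG40228* (chr3L:27069086-27069548, 96.1% masked) had Su(Hw) folds of 4.33, 4.06 and 5.03 in control cells and was called in 0 of 6 knockdown libraries. Over whole regions, tandem repeats with at least 60% identity were found in 3 of 202 pericentromeric regions, all 3 near *CG40228*, and in 0 of 59 on chromosome 4.

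Promoter calls at genes were counted in the same way. CP190 was within 1 kb of the TSS in all 3 control libraries at 35 of 215 pericentromeric genes, and at 11 of these no library called it after *eff* knockdown and at 18 none did after *cul4* knockdown. In the rest the counts were 21 and 52 of 5385. For Cul4, 38 and 25 of 47 pericentromeric genes lost the promoter peak, against 1035 (31.0%) and 533 (15.9%) of 3344 in the rest. On chromosome 4, 0 of 15 genes lost CP190 in either knockdown, and 3 and 0 of 7 lost Cul4. These calls are of peaks, and no gene expression was measured here.

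Over all 116 pericentromeric protein-coding genes, CP190 was called at the promoter in all 3 control libraries at 27 (23.3%) and Cul4 at 34 (29.3%). A list of 29 genes known to reside in heterochromatin was examined, of which 22 have their TSS inside. CP190 was called in all 3 control libraries at 6 of them: *lt*, a vacuolar sorting factor, the ribosomal protein genes *RpL5* and *RpL15*, *vtd*, the Rad21 cohesin subunit, *su(f)*, an mRNA 3′ end processing factor, and *Tim17b*, a mitochondrial import subunit. After *eff* knockdown all 3 libraries called it only at *RpL5*, 1 library called it at *lt* and none at the other 4. After *cul4* knockdown no library called it at any of the 6. Cul4 was called in all 3 control libraries at these 6 and at *alpha-Cat*, *Dbp80*, a DEAD-box RNA helicase, and *cta*, a G protein alpha subunit, and at 0 of the 9 in all 3 libraries of either knockdown.

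At *vtd* (chr3L:27135888-27137012, 53 bp from the TSS) CP190 folds were 6.42, 4.28 and 5.02 and Cul4 folds 6.29, 6.84 and 7.37 in control cells. After knockdown CP190 was called in 0 of 6 libraries and Cul4 in 1, at 2.405 after *cul4* knockdown. The BEAF-32 core in the window printed above lies near its right-hand end. *Tim17b* (chr3R:3734658-3735496) was alike, with CP190 folds of 5.96, 3.47 and 3.95 and Cul4 folds of 5.19, 5.13 and 5.27 in control cells.

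A peak 4309 bp from the nearest *lt* TSS behaved otherwise. At chr2L:22920043-22921577 CP190 was called in 9 of 9 libraries, at 7.72, 8.86 and 11.4 in control cells, 5.73, 6.32 and 6.10 with *eff* dsRNA and 5.02, 6.56 and 7.47 with *cul4* dsRNA. Cul4 was called at 7.64, 7.57 and 7.48 in control cells, in 0 of 3 libraries after *eff* knockdown and in 2 after *cul4* knockdown, at 2.83 and 2.63. *RpL10*, whose promoter is printed above, had Cul4 folds of 7.12, 7.995 and 8.10 in control cells, 0 calls with *eff* dsRNA and 4.89, 4.91 and 3.51 with *cul4* dsRNA. CP190 was called there in 1 control library only.

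Other heterochromatin genes had no CP190 or Cul4 call at the promoter in any library of the 3 treatments. They include *Parp1*, the poly(ADP-ribose) polymerase, *Set1*, a histone H3 lysine 4 methyltransferase, *AGO3*, a piRNA-pathway Argonaute, the ecdysone synthesis genes *spok* and *nvd*, *Snap25*, *eIF4B*, the homeobox gene *scro* and the *stnA* and *stnB* pair. *Myo81F* had Su(Hw) at its promoter in 3 control libraries and in 0 after either knockdown.

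On chromosome 4, CP190 was called at the promoter in all 3 control libraries at 13 of 80 protein-coding genes (16.25%). Of 14 listed transcription factors with a TSS inside, 4 had it in all 3 control libraries and 9 in none. These 4, *pan* (the TCF factor of Wnt signalling), *ey* (Pax6), *fuss* and *Sox102F*, had CP190 at the promoter in 3 of 3 libraries of every treatment, each with mouse Cul4 in 3 of 3. The promoters of *ci*, *toy*, *onecut*, *lgs*, *pho*, *dati*, *Mitf* and *sv* had no CP190 call in any library. *zfh2*, a zinc-finger homeodomain gene, had Cul4 without CP190, at folds of 4.35, 7.14 and 5.48 in control cells, 3.03 in 1 library with *eff* dsRNA and 3.89, 4.38 and 6.02 with *cul4* dsRNA.

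Of 23 listed signalling and cell surface genes of chromosome 4, *myo* (myoglianin), *Pur-alpha* and *Actbeta* (an activin ligand) had CP190 in 3 of 3 libraries of every treatment, and *Kif3C* and *Asator* in 3, 3 and 2. *Actbeta* was the only listed chromosome 4 gene with promoter Su(Hw), in 3 of 3 libraries of each treatment. Of 13 housekeeping genes, *yellow-h* and *gw* (the GW182 miRNA silencing factor) had CP190 in 3, 3 and 2 libraries. *RpS3A* and *gw* had Cul4 in 3 control libraries, 0 with *eff* dsRNA and 2 with *cul4* dsRNA. *Pur-alpha* had CP190 folds of 15.3, 13.1 and 13.9 in control cells, 13.9, 13.8 and 15.1 with *eff* dsRNA and 13.8, 15.0 and 17.6 with *cul4* dsRNA.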

How the data were processed

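ChIP DNA from Kc167 cells was sequenced single-end by the authors. Their processing notes name cutadapt 3.4, Bowtie2 2.4.2, SAMtools 1.12, Picard and MACS2 2.2.7.1 on dm6, and their methods state that reads of low mapping quality and duplicates were removed and that MACS2 was given IP and input files at a q of 1e-09. The authors also dropped merged peaks that overlapped the dm6 ENCODE blacklist before their later analyses. No such filter was applied to the lists here, and whether regions named here were among those dropped was not checked. Each list names 1 library in its peak names, and which inputs it was called against is not given in the sources used here. In the deposited narrowPeak lists, MACS2 wrote a fold enrichment (a ratio to local background), a −log10 p and −log10 q, and a whole-number score that was not tested. No read totals are given, so precision is known only from list size, 424 to 9149 peaks.

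All lists were merged at 1 bp overlap, and genes were taken from Ensembl release 115 (17873 genes, BDGP6, the same assembly as dm6). Pericentromere and chromosome 4 were each set against the rest of 2L, 3L, 3R and X within a library by exact sign-flip permutation, and knockdown against control by exact permutation over libraries, both two-sided with Benjamini-Hochberg adjustment and a threshold of 0.05. Counts of lost and gained regions have no test. Densities carried a pseudocount of 0.5. Named regions were the 5 highest by mean percentile of fold in each territory and the 5 highest lost or gained in each comparison, beside the genes of the lists. The members and lists were chosen with earlier results of these data known. Alternatives were list size, −log10 q of at least 20, boundaries moved by 0.5 Mb, promoter definitions, overlap rules, masked sequence, each territory alone, the replicate block and leaving out each replicate. Peak statistics were tested on simulated data before use. Python 3.11.15, numpy 2.4.6, pandas 2.3.3, scipy 1.17.1 and matplotlib 3.10.9 were used. The mitochondrial genome, 2R and unplaced scaffolds were left out of the comparisons.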

Additional observations from a re-analysis of the deposited data

Results flagged for a closer look

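CP190 retention of control regions minus that in the rest, after *eff* knockdown, lay below the control mean in 3 of 3 libraries in the pericentromeric parts and above it in 3 of 3 on chromosome 4. The differences from the control mean were −19.65 and 0.667 percentage points. On chromosome 4 the groups overlapped and the control SD was 1.98 (exact permutation, n = 3, p = 1), so no change is shown there. The difference between the territories was not tested.

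Peaks on unplaced scaffolds, which no comparison used, numbered 47 in the 3 Su(Hw) control libraries, 28 with the mouse Cul4 antibody, 20 in the rabbit Cul4 control libraries and 18 in the CP190 control libraries. The 18 knockdown libraries together had 23. No library called a peak on the Y chromosome. The control and knockdown counts were not compared by a test.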

How the results depend on the processing

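All density and promoter-gene differences kept direction and threshold under every alternative run. With a −log10 q of at least 20, the Cul4 differences for pericentromeric summits near a TSS (−20.6 points), chromosome 4 percentile (10.6) and pericentromeric overlap with Su(Hw) (−4.33) passed the threshold, and losses inside became 18 for Cul4 after *cul4* and 3 for Su(Hw) after *eff* knockdown. With boundaries moved 0.5 Mb, Cul4 summits passed at −36.3, Cul4 overlap with Su(Hw) turned to 2.04, and Cul4 losses were 22 and 16 after *eff* and *cul4* knockdown. At equal list size the pericentromeric percentiles of CP190 (0.916) and Su(Hw) (6.05), overlaps of Cul4 with CP190 on chromosome 4 (22.5), and pericentromeric overlaps of Cul4 with Su(Hw) (4.47), CP190 with Su(Hw) (0.271) and Su(Hw) with CP190 (5.03) reversed. So did the Cul4 share inside after *eff* (1.02) and Su(Hw) retention minus rest after *cul4* knockdown (0.637), while Cul4 chromosome 4 summits (−40.4) no longer passed. Losses after *eff* and *cul4* knockdown were then 7 and 4 for CP190, 0 and 8 for Cul4 and 2 and 1 for Su(Hw), and gains 0 and 1 for CP190, 1 for Cul4 after *cul4* and 0 for Su(Hw) after *eff* knockdown. Within 1 kb in place of 250 bp of a TSS, Cul4 pericentromeric summits passed (−23.2) and Su(Hw) on chromosome 4 reversed (−7.24).

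On chromosome 4 alone, CP190 retention after *eff* knockdown (1.68) and, minus the rest, that of CP190 (0.667) and Cul4 (2.53) after *eff* and of Cul4 (8.98) and Su(Hw) (4.92) after *cul4* knockdown reversed, as did the Cul4 share after *eff* knockdown (0.107). Losses there were 0 and 0 for CP190, 3 and 1 for Cul4 and 0 and 0 for Su(Hw), with 0 gains. Counting a difference of 2 libraries gave losses of 48 and 57, 70 and 47, and 9 and 16, and gains of 2 and 1 for CP190, 1 and 1 for Cul4 and 1 for Su(Hw) after *cul4* knockdown. Alternatives of 3 kinds were chosen after seeing the data. Without the short Cul4 libraries 2 and 3 of *eff* knockdown, Cul4 summits (−21.0) and chromosome 4 overlap with Su(Hw) (6.75) passed and gains were 6. Without regions over 50% masked, Su(Hw) lost 3 after *eff* knockdown. Control calls scored again gave Cul4 losses of 20 after *eff* (list medians) and 18 (shared regions) or 8 (list medians) after *cul4* knockdown. Causes were not tested.

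Leaving out each replicate gave ranges of −8.31 to −5.84 for the CP190 pericentromeric percentile, −20.7 to −10.3 and −25.4 to −24.5 for Cul4 summits in the pericentromere and chromosome 4, −24.6 to 0.437 for Cul4 retention minus rest and −1.24 to 0.0108 for the Cul4 share after *eff* knockdown. Losses ranged from 17 to 42 and 22 to 44 for CP190 after *eff* and *cul4* and 5 to 9 for Su(Hw) after *eff* knockdown. Gains ranged from 1 to 2 and 0 to 1 for CP190, 0 to 1 for Cul4 in both and 0 to 1 for Su(Hw) after *cul4* knockdown.

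Correlations of same-numbered libraries ranged from −0.419 to 0.535, so pairing by replicate number was not shown, and libraries were tested as unpaired. With the replicate block, CP190 retention minus the rest after *eff* knockdown was still −14.8 (exact sign-flip permutation, n = 3 pairs, p = 0.25, the smallest possible), and the block changed no call. With 3 libraries a group p cannot go below 0.1, and small territories leave few regions to count: 8 reproducible Su(Hw) and 9 Cul4 regions on chromosome 4.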

Other observations

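Mitochondrial peaks were also called mostly in control libraries. The CP190 control libraries held 5, 1 and 7, the rabbit Cul4 control libraries 8, 8 and 8 and the Su(Hw) control libraries 9, 8 and 10. After knockdown CP190 had 0 in 6 of 6 libraries, Cul4 5, 0 and 1 after *eff* and 0, 5 and 0 after *cul4* knockdown, and Su(Hw) 1, 0 and 0 and 0, 3 and 0. Peak lists hold no read counts, so the share of mitochondrial reads in each library is unknown.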
